A study of Mus musculus with 6 samples.

Results

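The genes described here are 10 genes of cellular iron handling: transferrin (Trf), transferrin receptor (Tfrc), Steap3 and Slc11a2 for uptake, the ferritin subunits Fth1 and Ftl1 and their autophagy receptor Ncoa4 for storage, ferroportin (Slc40a1) for export, and the iron regulatory proteins Aco1 and Ireb2. They were chosen by gene symbol, with earlier results of these data known, and all 10 were found among the 15803 genes of the table. All 10 passed the filter of a mean of at least 1 count per 1000000 reads (CPM) over the libraries, as did 12155 genes in all. RNA-seq was performed on growth plate cartilage of E18.5 mouse embryos, with 3 libraries of each genotype. The WT embryos were Hnrnpk fl/fl, so that they carried the same loxP-flanked exons of Hnrnpk but no Cre, and the conditional knockout (CKO) embryos were Col2a1-Cre;Hnrnpk fl/fl. Hnrnpk encodes an RNA-binding protein, and the Col2a1 promoter drives Cre in chondrocytes, so cells of the dissected cartilage that never expressed Cre would keep the gene. The paper states that the perichondrium also expresses Col2a1 and that some hypertrophic chondrocytes become osteoblasts, so such cells could lose the gene too. The labels call the sample chondrocytes and do not say whether each library came from a separate embryo, so the p-values below measure the spread between these libraries.

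Cells take up iron mainly as transferrin bound to its receptor. The complex is carried into endosomes, where Steap3 reduces the released iron and Slc11a2 (DMT1) moves it into the cytosol. Iron that is not used is stored inside ferritin, a shell of heavy subunits (Fth1), which oxidize iron, and light subunits (Ftl1), which help to form the mineral core. Ncoa4 takes ferritin to the lysosome for breakdown, and ferroportin is the known exporter of iron from mammalian cells. Aco1 and Ireb2 encode the RNA-binding proteins IRP1 and IRP2. When iron is low, these bind stem-loops called iron-responsive elements, which blocks translation when the element lies in the 5′UTR and protects the mRNA from decay when it lies in the 3′UTR. In the growth plate, iron is a cofactor of the prolyl hydroxylases that modify collagen and that mark hypoxia-inducible factors for destruction.

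Ferritin and receptor mRNAs were both higher in the libraries labelled CKO. RNA levels do not measure translation, on which an element in the 5′UTR acts. The iron-responsive elements are shown because ferritin and the receptor carry them at opposite ends of the mRNA. They were searched in the GENCODE M21 transcripts of GRCm38 as a C, any 5 bases, then CAGTGN, with all 5 pairs of the upper stem formed by Watson-Crick or G-U pairing. Each is printed 5′ to 3′ on the strand of the gene, with the loop in capitals.
Fth1, 5′UTR, chr19:9982732-9982760, plus strand: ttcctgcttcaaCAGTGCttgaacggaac
Ftl1, 5′UTR, chr7:45459779-45459807, minus strand: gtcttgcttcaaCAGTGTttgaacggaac
Slc40a1, 5′UTR, chr1:45925465-45925493, minus strand: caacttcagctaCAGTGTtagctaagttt
Tfrc, 3′UTR, chr16:32631219-32631247, plus strand: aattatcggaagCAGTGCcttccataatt
Tfrc, 3′UTR, chr16:32631598-32631626, plus strand: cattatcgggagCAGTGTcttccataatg
Tfrc, 3′UTR, chr16:32631663-32631691, plus strand: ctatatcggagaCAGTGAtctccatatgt
Tfrc, 3′UTR, chr16:32631710-32631738, plus strand: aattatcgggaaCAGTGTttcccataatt
The letters alone occurred in the 5′UTR of 10.7% of genes and in the 3′UTR of 35.6%. Letters and stem together occurred in the 5′UTR of 28 of 20520 genes (0.136%) and in the 3′UTR of 127 of 20884 genes (0.608%). The other members had no match to these letters and pairs, which says nothing about elements of another form.

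The libraries held 1153871 to 1454094 reads, so that 1 read was worth 0.688 to 0.867 CPM. Hnrnpk itself stood at 842, 955 and 944 CPM in the WT libraries and at 759, 950 and 780 CPM in the CKO libraries. The genotypes overlapped in Hnrnpk (log2 fold change -0.14, SE 0.15, adjusted p = 0.622 by limma), and a count over the whole gene does not check the loss of the loxP-flanked exons. The paper reports loss of Hnrnpk protein in E15.5 CKO growth plates by Western blot and immunostaining, which were not made on these libraries. The genotypes of the libraries are given as labelled, and a library is named by its label and replicate number. Of 12 chondrocyte markers, 8 were called lower by limma, and their sum was 4201 to 5556 CPM in the libraries labelled CKO against 16729 to 23154 CPM in WT. In bulk RNA, fewer cells of a type and less RNA per cell cannot be told apart, and the part of this loss in the values below was not tested. CKO 2 stood apart from CKO 1 and CKO 3. Over all genes tested the Pearson correlation of log2(CPM + 1) was 0.965 between CKO 1 and CKO 3, and 0.924 and 0.921 between CKO 2 and each of these. WT 3 stood apart from WT 1 and WT 2 in a similar way. The correlation was 0.965 between WT 1 and WT 2, and 0.937 and 0.938 between WT 3 and each of these. Many results that rest on CKO 2 are given with and without it, and results without WT 3 are given for fewer genes. Without CKO 2 more genes were called over the whole table, as given below.

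Of the 10 genes, 4 were higher in the libraries labelled CKO (Tfrc, Trf, Fth1 and Ftl1) and 0 were lower at an adjusted p under 0.05 by limma. The call was made on log2(CPM + 1) with Benjamini-Hochberg adjustment over all genes tested. Of all genes tested, 3.18% were called higher and 2.6% lower. At an unadjusted p under 0.05 there were 5 of the 10 members, the additional gene being Aco1 with lower values, against 21.3% of all genes tested. edgeR and DESeq2 on the recovered reads also called 4 members higher and 0 lower. Over all genes, edgeR with TMM scaling called 374 higher and 363 lower of 7704, and DESeq2 called 340 higher and 297 lower of 15803. The same 4 genes met the criterion of the study, a log2 fold change above 1 with an unadjusted p under 0.05, which 5.3% of all genes tested met in this direction. Every library labelled CKO lay above every WT library in 4 of the 10 members (14.5% of all genes tested), and below every WT library in 1 (13.2% of all genes tested). For these 5 genes the exact two-sided permutation test gave p = 0.1, the smallest value that 3 against 3 libraries allow. The median log2 fold change of the 10 members was 0.59, against 0.01 over all genes tested, with 7 positive and 3 negative values. As the members were chosen with earlier results of these data known, these comparisons with all genes are descriptive and not independent evidence.

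**Figure D1:**
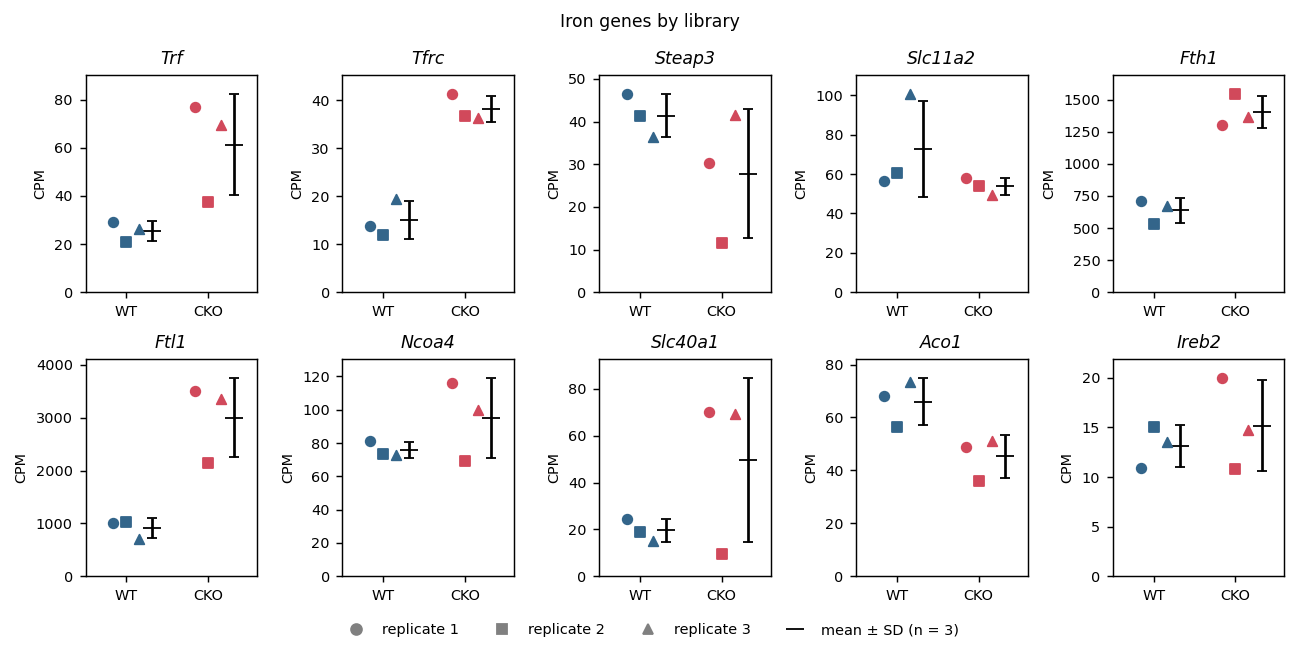
CPM of each of the 10 iron genes in each library (vertical axes, linear from 0; circles, squares and triangles mark replicates 1, 2 and 3; black bars give the mean and SD of 3 libraries). The libraries labelled WT (blue) and CKO (red) do not overlap for Trf, Tfrc, Fth1, Ftl1 and Aco1, and the CKO 2 square lies apart for Slc40a1 at 9.38 CPM.

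Among the uptake genes, both transferrin and its receptor were higher in the libraries labelled CKO, while Steap3 and Slc11a2 did not pass the test. Tfrc (ENSMUSG00000022797, GRCm38 chr16:32608920-32632794, plus strand) stood at 13.8, 12.0 and 19.4 CPM in WT 1, WT 2 and WT 3. It stood at 41.3, 36.8 and 36.4 CPM in CKO 1, CKO 2 and CKO 3. The libraries labelled CKO were close to each other and all lay above the highest WT library. The mean was 15.1 ± 3.88 CPM in WT and 38.2 ± 2.70 CPM in CKO (SD, n = 3), 2.53-fold higher, with a log2 fold change of 1.31 (SE 0.26, adjusted p = 0.0170 by limma). The counts behind it were small, with 16 to 23 reads in the WT libraries and 42 to 60 in the CKO libraries. The call was lost with 1 library left out in 4 of 6 cases: the limma adjusted p was 0.0796 without CKO 1, 0.0717 without CKO 3, 0.0788 without WT 1 and 0.0808 without WT 2. The log2 fold change of Tfrc stayed between 1.17 and 1.50 in all 6.

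Trf encodes the plasma iron carrier, which is made chiefly by the liver and also in other tissues. Trf (ENSMUSG00000032554, chr9:103204001-103230444, minus strand) was measured at 29.0, 21.0 and 26.2 CPM in WT 1 to 3 and at 77.0, 37.5 and 69.3 CPM in CKO 1 to 3. The groups did not overlap, but CKO 2 lay much nearer to the WT libraries than CKO 1 and CKO 3 did. The mean was 25.4 ± 4.05 CPM in WT and 61.3 ± 20.9 CPM in CKO (SD, n = 3), with a log2 fold change of 1.19 (SE 0.29, adjusted p = 0.0404 by limma). Without CKO 2 the log2 fold change of Trf was 1.50 (adjusted p = 0.00235 by limma). The call was lost when any other library was left out, with limma adjusted p of 0.156 without CKO 1, 0.159 without CKO 3, 0.108 without WT 1, 0.156 without WT 2 and 0.0737 without WT 3. It was also lost with a pseudocount of 0.1 (adjusted p = 0.0506 by limma). Of 7 liver markers 5 had values, and 4 of these, Alb, Apoa1, Ahsg and Afp, had at most 3 reads in every library; the summed level was 2.25 to 3.62 CPM in WT and 2.89 to 7.80 CPM in CKO. The gene Gm20425, which shares sequence with Trf, held 1 or 2 reads in each library.

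Steap3, the endosomal ferrireductase, stood at 46.4, 41.3 and 36.3 CPM in WT 1 to 3 and at 30.3, 11.5 and 41.6 CPM in CKO 1 to 3. CKO 3 lay within the WT range and CKO 2 far below the rest. The log2 fold change was -0.72 (SE 0.39, adjusted p = 0.323 by limma), and -0.21 without CKO 2 (adjusted p = 0.619 by limma). Slc11a2, the transporter that releases iron from the endosome, stood at 56.5, 60.8 and 100.5 CPM in WT 1 to 3 and at 57.8, 54.1 and 49.4 CPM in CKO 1 to 3. WT 3 was the high library, and the remaining 5 lay close together. Its log2 fold change was -0.38 (SE 0.24, adjusted p = 0.392 by limma), and -0.13 without WT 3.

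The RefSeq promoter windows of GRCm38.p6, from 250 bases before to 50 bases after each annotated start, covered 7 of the 10 members. The core letters of a hypoxia response element, ACGTG or GCGTG on either strand, were present in 7 of the 14 windows of these members. They were present in 43.8% of all 32851 windows, so that the share of windows in the members was near that of all promoters. Some members have several windows, so the windows are not independent. By gene, 5 of these 7 members had a match in any window. The Tfrc windows, which overlap each other, held 3 matches each. A stretch next to the Tfrc start is shown because the receptor is a textbook target of hypoxia-inducible factor, the pathway examined by the study. ACGTG is in capitals.
Tfrc, chr16:32608860-32608919, plus strand: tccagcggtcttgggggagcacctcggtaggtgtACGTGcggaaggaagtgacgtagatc

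The ferritin subunits were the most abundant members in every library, and both were higher in the libraries labelled CKO. Fth1 (ENSMUSG00000024661, chr19:9980598-9985098, plus strand) stood at 712, 531 and 671 CPM in WT 1 to 3 and at 1305, 1542 and 1365 CPM in CKO 1 to 3. All libraries labelled CKO lay above all WT libraries, and CKO 2 was the highest. The mean was 638 ± 95.0 CPM in WT and 1404 ± 123 CPM in CKO (SD, n = 3), 2.20-fold higher, with a log2 fold change of 1.15 (SE 0.16, adjusted p = 0.00365 by limma). These values rest on 707 to 982 reads in the WT libraries and 1575 to 2136 in the CKO libraries.

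Ftl1 (ENSMUSG00000050708, chr7:45457944-45459884, minus strand) stood at 1012, 1033 and 705 CPM in WT 1 to 3 and at 3498, 2144 and 3357 CPM in CKO 1 to 3. The groups were far apart, and CKO 2 was the lowest of the CKO libraries, in contrast to Fth1. The mean was 917 ± 184 CPM in WT and 2999.5 ± 745 CPM in CKO (SD, n = 3), 3.27-fold higher, with a log2 fold change of 1.70 (SE 0.22, adjusted p = 0.00279 by limma). Both subunits were called higher under all 14 alternatives, with log2 fold changes from 1.02 to 1.23 for Fth1 and from 1.52 to 1.92 for Ftl1. Ftl1 has 9 near-identical genes in the annotation, of which 6 are pseudogenes (at least 90% identity over at least 300 bases). How reads that match several of them were counted is not given in the sources used here, so the level of Ftl1 is uncertain to that extent. The copy Ftl1-ps1 held 49, 33 and 39 reads in WT 1 to 3 and 207, 86 and 134 reads in CKO 1 to 3, against 834 to 1396 and 2970 to 5087 reads for Ftl1 itself.

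Ferritin as a whole, Fth1 plus Ftl1, took 0.172%, 0.156% and 0.138% of all reads in WT 1 to 3. It took 0.480%, 0.369% and 0.472% in CKO 1 to 3. Ferritin mRNA thus formed a larger share in each library labelled CKO than in any WT library. The ratio of Fth1 to Ftl1 within a library, which does not depend on library scaling, was 0.703, 0.513 and 0.952 in WT 1 to 3 and 0.373, 0.719 and 0.407 in CKO 1 to 3. The groups overlapped because CKO 2 lay inside the WT range, and the difference of the log2 ratio was -0.55 (exact permutation test, two-sided, p = 0.3). Tfrc per 1000 CPM of ferritin was 7.99, 7.68 and 14.1 in WT 1 to 3 and 8.59, 9.99 and 7.71 in CKO 1 to 3. WT 3 was the high library and the other 5 were close to each other, with a difference of the log2 ratio of -0.13 (exact permutation test, two-sided, p = 0.9). The sign turned without WT 3, to 0.15.

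Ncoa4, the receptor for ferritin breakdown, stood at 81.2, 73.5 and 72.7 CPM in WT 1 to 3 and at 116, 69.3 and 99.7 CPM in CKO 1 to 3. CKO 1 and CKO 3 lay above the WT libraries, and CKO 2 just below them. The log2 fold change was 0.29 (SE 0.21, adjusted p = 0.473 by limma), and 0.50 without CKO 2 (adjusted p = 0.0826 by limma).

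The result for export turned on CKO 2. Slc40a1 (ENSMUSG00000025993, chr1:45908068-45926523, minus strand), the gene of ferroportin, stood at 24.6, 18.8 and 15.2 CPM in WT 1 to 3 and at 70.1, 9.38 and 69.3 CPM in CKO 1 to 3. CKO 1 and CKO 3 were well above all WT libraries, and CKO 2, with 13 reads, was below all of them. Over all libraries the log2 fold change was 0.89 (SE 0.62, adjusted p = 0.453 by limma), and without CKO 2 it was 1.81 (SE 0.25, adjusted p = 0.00164 by limma). Without CKO 2, 1298 of 12055 genes tested were called by limma, against 703 of 12155 with all libraries, so many other genes also gained a call. In CKO 2 the summed markers of hypertrophic chondrocytes and of osteoblasts were lower than in CKO 1 and CKO 3. The summed level of 5 hypertrophic markers was 2258, 453 and 2386 CPM in CKO 1 to 3 against 352 to 769 CPM in WT, mostly from Mmp13 (2155, 377 and 2301 CPM). Col10a1, the defining collagen of hypertrophic cells, went the other way, with 24.8, 45.5 and 16.5 CPM in CKO 1 to 3. The summed level of 8 osteoblast markers was 1276, 367 and 1370 CPM in CKO 1 to 3 against 458 to 693 CPM in WT. The gap of CKO 2 came mostly from Ibsp (708, 83.0 and 808 CPM) and Bglap2 (290, 35.4 and 257 CPM), and Bglap was also low there. Col1a1 (245, 240 and 269 CPM) and Sp7 (4.13, 4.33 and 4.33 CPM) differed little between CKO 1, CKO 2 and CKO 3. With all 6 libraries 0 markers of either list were called by limma, edgeR or DESeq2. Of the 4 hypertrophic markers tested by limma, 2 had an unadjusted p under 0.05 (Mmp13 with higher and Pth1r with lower values). Of the 6 osteoblast markers tested, 3 did (Bglap2 and Ibsp with higher and Col1a1 with lower values), against 21.3% of all genes tested. The part of hypertrophic chondrocytes and osteoblasts in the Slc40a1 values was not tested. Macrophages are known to export iron through ferroportin. The 10 macrophage markers with values (of 12 listed) summed to 205, 220 and 214 CPM in CKO 1 to 3. Most of this sum was Lyz2 (111, 105 and 115 CPM) and Cd68 (76.3, 46.9 and 76.3 CPM), both lowest in CKO 2. Adgre1, Csf1r, C1qa, C1qb, C1qc, Tyrobp and Fcer1g, at lower levels, were highest in CKO 2. The part of macrophages in the Slc40a1 values was not tested.

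The iron regulatory proteins did not pass the test. Aco1 (chr4:40143081-40198338, plus strand), the gene of IRP1, which is a cytosolic aconitase when it holds its iron-sulfur cluster, stood at 68.1, 56.3 and 73.5 CPM in WT 1 to 3 and at 48.8, 36.1 and 51.1 CPM in CKO 1 to 3. All libraries labelled CKO lay below all WT libraries. The log2 fold change was -0.54 (SE 0.21, unadjusted p = 0.0300, adjusted p = 0.180 by limma) and ranged from -0.65 to -0.39 over the alternatives. Ireb2 (chr9:54863789-54912530, plus strand), the gene of IRP2, which is controlled mainly by protein breakdown when iron is present, stood at 10.9, 15.0 and 13.5 CPM in WT 1 to 3 and at 19.9, 10.8 and 14.7 CPM in CKO 1 to 3. The groups overlapped, and each library held only 15 to 29 reads. Its log2 fold change was 0.17 (SE 0.31, adjusted p = 0.806 by limma).

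**Figure D2:**
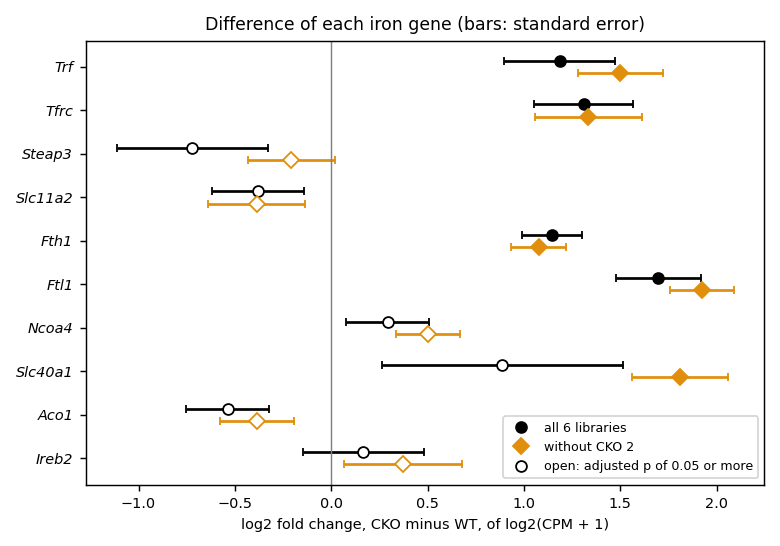
Log2 fold change of log2(CPM + 1), CKO minus WT, for each iron gene (horizontal axis; bars give the SE), with all 6 libraries (black circles) and without CKO 2 (orange diamonds); filled symbols have a limma adjusted p under 0.05. Slc40a1 moves from 0.89 to 1.81 and becomes filled without CKO 2, and Tfrc, Trf, Fth1 and Ftl1 are filled in both.

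CKO 2 was the lowest of the 3 CKO libraries in 7 of the 10 members and the highest in 1, Fth1. Among all genes tested it was the lowest in 37.6% and the highest in 41.1%. The members were thus mostly low in this library, apart from Fth1, Tfrc and Slc11a2. Relative to the WT mean of log2(CPM + 1), CKO 2 stood at 1.26 for Tfrc, 1.28 for Fth1 and 1.25 for Ftl1. It stood at 0.56 for Trf, -0.96 for Slc40a1 and -1.75 for Steap3. CKO 1 and CKO 3 differed from each other by at most 0.45 in any member, the largest gap being that of Steap3.

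**Figure D3:**
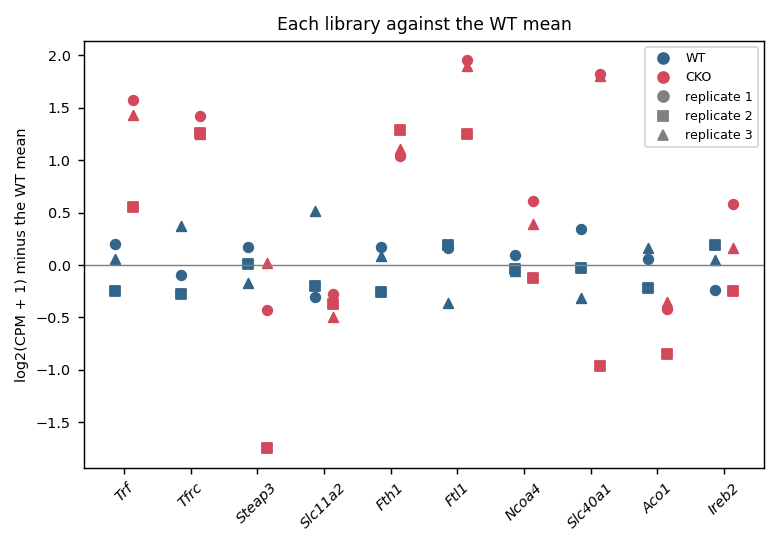
Log2(CPM + 1) of each library minus the mean of the WT libraries (vertical axis) for the 10 iron genes; circles, squares and triangles mark replicates 1, 2 and 3. CKO 1 and CKO 3 lie together near 1.8 for Slc40a1, where CKO 2 lies at -0.96.

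The members were also ordered by level, as CPM per kb of the principal transcript, since longer transcripts yield more fragments. In WT the mean level per kb was 947 for Ftl1 and 686 for Fth1, which overlapped between libraries, and then 24.0 for Slc11a2, far below. Slc11a2, Ncoa4 (18.6) and Aco1 (17.2) overlapped from each gene to the next. Trf (9.88), Steap3 (8.01) and Slc40a1 (5.80) followed, again with overlap between neighbours, and Tfrc (3.08) and Ireb2 (2.28 CPM per kb) were the lowest and overlapped. The gaps without overlap were those between Fth1 and Slc11a2, Aco1 and Trf, and Slc40a1 and Tfrc. In the libraries labelled CKO, Ftl1 (3099 CPM per kb) and Fth1 (1511) no longer overlapped. Trf came next at 23.8, followed by Ncoa4 at 23.4, Slc11a2 at 17.8, Slc40a1 at 14.7 and Aco1 at 11.8 CPM per kb, and each of these overlapped with its neighbour. Tfrc (7.80 CPM per kb) lay below Aco1 without overlap, and overlapped with Steap3 (5.39), which overlapped with Ireb2 (2.63). Transferrin thus stood directly after the ferritin subunits in this order, among neighbours from which it was not separated.

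**Figure D4:**
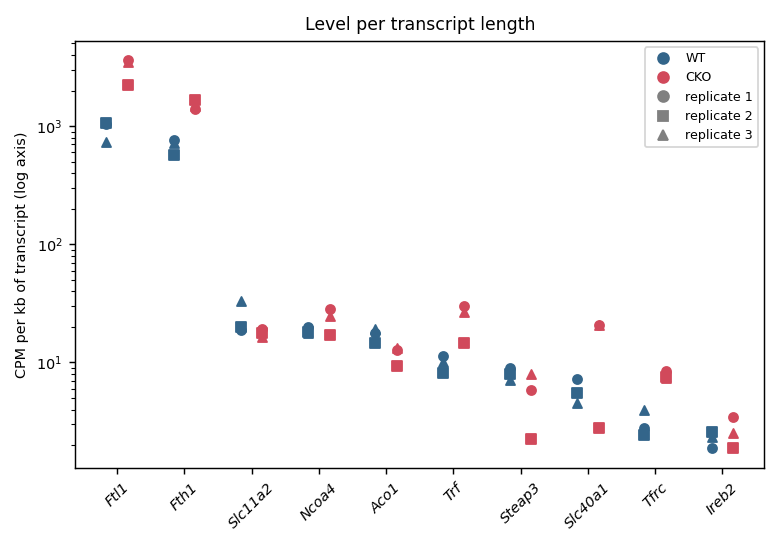
Level of the 10 iron genes in each library as CPM per kb of transcript (vertical axis, log scale), ordered by the WT mean; WT is blue and CKO red, and the symbols mark the replicates. The lowest ferritin value is 571 and the highest value of any other member is 33.2, that of Slc11a2 in WT 3.

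Beyond these members, 95 other iron and heme genes were listed in 5 groups, and 87 of them had values, of which 85 were tested. Among these, 4 were called higher (Hmox1, Lcn2, Bola2 and Nubp1) and 1 lower (Steap4), against 3.18% and 2.6% of all genes tested. Their median log2 fold change was -0.04, and the medians of the 5 groups ranged from -0.46 to 0.05, against 0.01 over all genes tested. At an unadjusted p under 0.05 there were 17 of the 85, near the 21.3% of all genes tested.

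In the group of other uptake and reduction genes (14 tested), 1 was called in each direction, and the median log2 fold change was 0.05. Lcn2, a secreted protein that binds iron-loaded siderophores, stood at 61.6, 87.8 and 92.1 CPM in WT 1 to 3 and at 234, 165 and 214 CPM in CKO 1 to 3. All libraries labelled CKO were higher, and the log2 fold change was 1.34 (SE 0.21, adjusted p = 0.00619 by limma). Steap4, a metalloreductase of the Steap3 family, stood at 38.4, 21.0 and 80.3 CPM in WT 1 to 3 and at 7.56, 7.94 and 9.53 CPM in CKO 1 to 3. It was low in every library labelled CKO and varied widely in WT, with a log2 fold change of -2.15 (SE 0.42, adjusted p = 0.0170 by limma); the call was lost without CKO 1, CKO 3 or WT 1, at values between -2.24 and -2.09. Steap1, another member of that family, stood at 286, 249 and 244 CPM in WT 1 to 3 and at 121, 217 and 121 CPM in CKO 1 to 3. The groups did not overlap, but the gene did not pass the test (log2 fold change -0.81, adjusted p = 0.0661 by limma) unless CKO 2 was left out (-1.09, adjusted p = 0.00126 by limma). Snx3, which recycles the transferrin receptor, was the most abundant of the group and had a log2 fold change of -0.01 (SE 0.16).

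Of 12 listed genes of iron export, hepcidin and their control, 7 were tested, and 0 were called by limma, edgeR or DESeq2; 1 had an unadjusted p under 0.05. The median log2 fold change was -0.46, with 6 of 7 values negative. Hfe, which takes part in iron sensing, had a log2 fold change of -0.89 (SE 0.52), and Cp, the ferroxidase that works with ferroportin, of -0.46 (SE 0.37). CKO 2 was the low library for both, at 3.61 CPM for Hfe against 16.5 and 18.6 in the other libraries labelled CKO, and at 13.0 CPM for Cp against 35.8 and 37.3. Without CKO 2 the values were -0.22 for Hfe and 0.02 for Cp. Neo1, a coreceptor in hepcidin control, had a log2 fold change of -0.28 (SE 0.21).

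Among genes of IRP turnover, iron chaperones and ferritin kin (11 tested), 1 was called higher and 0 lower by limma and edgeR, and DESeq2 called 0. Bola2 and Glrx3 form a cytosolic iron-sulfur chaperone complex. Bola2 stood at 26.8, 32.3 and 29.6 CPM in WT 1 to 3 and at 50.2, 53.4 and 52.9 CPM in CKO 1 to 3. The libraries were tight within each group, and the log2 fold change was 0.80 (SE 0.20, adjusted p = 0.0435 by limma), a call lost in 8 of 14 alternatives. Glrx3 was 341 ± 74.2 CPM in WT and 499 ± 71.8 CPM in CKO (SD, n = 3), without overlap, and did not pass the test (log2 fold change 0.56, adjusted p = 0.124 by limma) except without CKO 2 (0.69, adjusted p = 0.0336 by limma). Pcbp1 and Pcbp2, poly(C)-binding kin of Hnrnpk that carry iron to ferritin, were low. Pcbp1 held 30 reads over the WT libraries and 20 over the CKO libraries (log2 fold change -0.41, SE 0.43, adjusted p = 0.631 by limma). Pcbp2 held 30 and 17 reads (log2 fold change -0.66, SE 0.45, adjusted p = 0.436 by limma).

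Of the genes of mitochondrial iron and iron-sulfur clusters (30 tested), 1 was called higher and 0 lower by limma and edgeR, and DESeq2 called 0. The unadjusted p was under 0.05 in 7, near the share of 21.3% over all genes tested, and the median log2 fold change was -0.09. Nubp1, a scaffold of cytosolic iron-sulfur assembly, stood at 28.3, 23.3 and 21.1 CPM in WT 1 to 3 and at 36.4, 65.0 and 54.6 CPM in CKO 1 to 3. The groups did not overlap, and the log2 fold change was 1.04 (SE 0.26, adjusted p = 0.0438 by limma). The call was lost in 9 of 14 alternatives, among them the fit without CKO 2, the highest library. Fdx1, a ferredoxin that passes electrons in mitochondria, stood at 62.3, 44.3 and 73.5 CPM in WT 1 to 3 and at 11.0, 54.9 and 24.3 CPM in CKO 1 to 3. CKO 2 lay inside the WT range, with a log2 fold change of -1.22 (adjusted p = 0.160 by limma), and of -1.78 without CKO 2 (adjusted p = 0.00757 by limma). The abundant Nfu1 and Hspa9 had log2 fold changes of -0.18 (SE 0.31) and -0.20 (SE 0.20).

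Among 23 genes of heme synthesis, breakdown and transport, 1 was called higher and 0 lower by limma and edgeR, and DESeq2 called 2 higher; the median log2 fold change was 0.05. Hmox1, the inducible enzyme that splits heme and releases its iron, stood at 97.8, 113 and 65.0 CPM in WT 1 to 3 and at 415, 491 and 376 CPM in CKO 1 to 3. Every library labelled CKO was far above the WT range, and the log2 fold change was 2.23 (SE 0.22, adjusted p = 0.000654 by limma), with calls under all 14 alternatives. Slc48a1, a heme transporter of lysosomes and endosomes, was 259 ± 46.5 CPM in WT and 340 ± 59.1 CPM in CKO (SD, n = 3), with a log2 fold change of 0.39 (SE 0.19, adjusted p = 0.257 by limma). Hp, which binds free hemoglobin, stood at 385, 326 and 752 CPM in WT 1 to 3 and at 573, 33.9 and 601 CPM in CKO 1 to 3. The low value was again that of CKO 2, and the log2 fold change of -0.99 (SE 0.88, adjusted p = 0.569 by limma) turned to 0.36 without it.

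**Figure D5:**
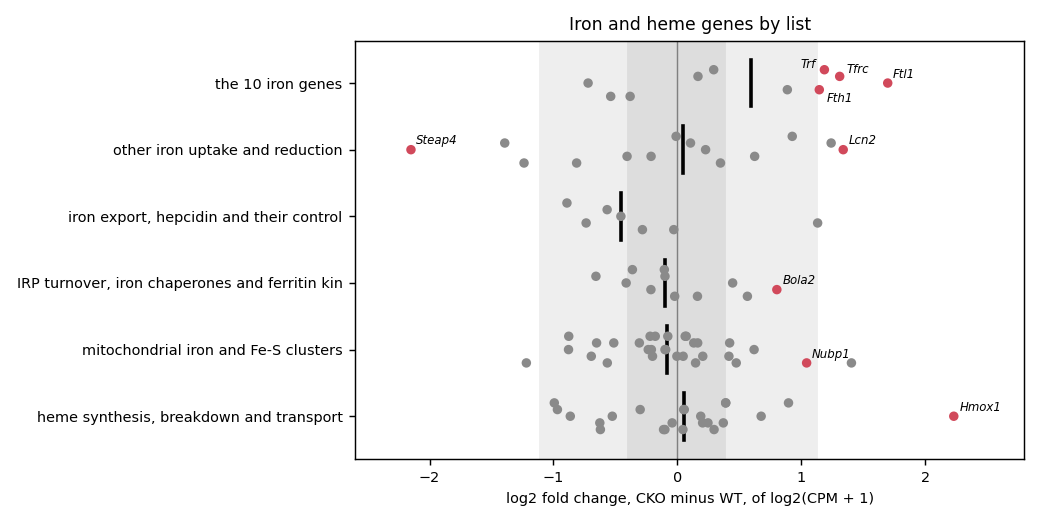
Log2 fold change of log2(CPM + 1), CKO minus WT (horizontal axis), of the 10 iron genes and of each other tested iron or heme gene by list; red points have a limma adjusted p under 0.05 and black lines mark medians. The grey bands hold the middle 50% and the middle 90% of all genes tested, and the points outside the wide band include Ftl1 at 1.70, Hmox1 at 2.23 and Steap4 at -2.15.

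Markers of other cells known to handle much iron were summed in each library. Of 15 erythroid markers 8 had values, and 6 of these, among them Hbb-bs, Hbb-bt and Klf1, had at most 3 reads in every library. The summed erythroid level was 0.725 to 7.50 CPM in WT and 3.44, 28.9 and 8.67 CPM in CKO 1 to 3. The highest sum, in CKO 2, was mostly Hba-a2 (28.1 CPM). The 10 macrophage markers with values summed to 72.8 to 315 CPM in WT and to 205 to 220 CPM in CKO, with 1 marker called higher (Cd68, also a lysosomal protein) and 2, Mrc1 and C1qa, at no more than 3 reads in any library. The highest macrophage sum was that of WT 3, where Lyz2 alone stood at 270 CPM, against 51.5 and 54.8 CPM in WT 1 and WT 2. The 6 osteoclast markers with values (of 9 listed) summed to 99.3 to 106 CPM in WT and to 114 to 126 CPM in CKO, with 0 called by limma, edgeR or DESeq2 and 1 at an unadjusted p under 0.05 by limma. The part of these cells in the differences of the iron genes was not tested.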

How the data were processed

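Stranded mRNA libraries were made from total RNA of 3 WT and 3 CKO growth plate samples. The authors deposited CPM per gene and library; per the labels, cutadapt 2.5, HISAT2 and featureCounts 1.6.3 were used. The genome build and the strand setting of the counting are not given in the sources used here, so reads of a gene and an antisense partner might not be separated. All values (100%) were whole multiples of 1 read within 0.01 reads, which gave back the reads and the depth. Genes were matched by symbol and identifier, and positions were taken from GENCODE M21 (GRCm38), in which 15212 of 15217 Ensembl identifiers were found.

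Genes whose mean reached 1 CPM were fitted with limma 3.58.1 (R 4.3.3) on log2(CPM + 1), which understates the change of low genes, with a mean-variance trend, no covariate and Benjamini-Hochberg adjustment over 12155 genes. Alternatives were a pseudocount of 0.1, no filter, a mean of at least 5 CPM, a replicate block, TMM scaling, edgeR 4.0.16 and DESeq2 1.42.0 on the recovered reads, and leaving out each library. Scripts were tested on simulated data. Ratios were compared with exact permutation tests. Near-identical genes were found with BLAST 2.17.0.

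The members and gene lists were chosen with earlier results of these data known. Named were all members, and of the other lists each called gene, the 2 genes per list with the greatest change among those with a mean of 10 CPM or more, the 2 most abundant, and Hnrnpk, Pcbp1 and Pcbp2; 1 gene that this rule names is not reported here. Of skeletal muscle, endothelium and epidermis markers, 0 were called by limma, edgeR or DESeq2, and 1 muscle marker had an unadjusted p under 0.05 by limma.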

Additional observations from a re-analysis of the deposited data

How the results depend on the processing

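Fth1 and Ftl1 kept their call under all 14 alternatives, and 0 members were called lower under any. The number of members called higher ranged from 2 to 5 with 1 library left out: it was 2 without CKO 1, CKO 3, WT 1 or WT 2, where Tfrc and Trf lost the call, and 5 without CKO 2, where Slc40a1 gained it. Over all genes, 703 were called with all libraries, 212 to 258 without CKO 1, CKO 3, WT 1 or WT 2, 543 without WT 3 and 1298 without CKO 2. With 1 library left out, the difference in the log2 ratio of Tfrc to ferritin ranged from -0.29 to 0.15. Log2 fold changes whose sign turned with 1 library left out ranged from -0.040 to 0.37 for Ireb2, from -0.075 to 0.084 for Snx3, from -0.71 to 0.018 for Cp, from -0.60 to 0.032 for Nfu1 and from -1.69 to 0.36 for Hp; the cause was not tested.

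The replicate numbers are shared between genotypes, and the labels do not say whether they pair the samples. The paper states that mice were compared with their littermates. The correlations of same-numbered deviations from the group means were 0.04, -0.13 and -0.10. CKO 1, CKO 2 and CKO 3 each correlated best with a WT library of another number (0.11 with WT 2, 0.16 with WT 3 and 0.07 with WT 1). With 3 libraries per group such correlations cannot decide whether samples were paired. With a replicate block, 385 genes were called in place of 703, and 4 members were called higher and 0 lower. The depth of 1153871 to 1454094 reads limits what can be said of genes with few reads, such as Ireb2, Pcbp1 and Pcbp2.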
